A study of Mus musculus with 2 samples.

Results

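The RNA of 10 digestive enzyme genes of the pancreatic acinar cell was followed through a droplet single-cell library of mouse islets. The genes were Ctrb1, Cela2a, Cela3b, Prss2, Try4, Try5, Cpa1, Cpb1, Pnlip and Clps, all 10 were found among the 27998 rows of the gene list, and they were picked as known acinar products after their levels in these data had been seen. Their levels in the library are therefore a description, without a test. Islets came from wild-type (WT) mice and from mice with a beta cell specific miR-203 transgene (TG), both male, 8 weeks old and fasted for 12 hours, with 1 library per genotype made with the 10x Genomics 3′ v2 kit. The promoter that drives the transgene is not given in the labels, and although they name islets as the tissue, part of their preparation text is about sorted goblet cells of the gut and part about TRIZOL. The results below are from the WT library. Of the TG library only 782 UMIs were at hand, in the first 81 barcodes of its list and with no cell among them, so the genotypes were not compared and cell barcodes shared between the libraries could not be counted.

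Acinar cells make up most of the exocrine pancreas and surround the islets. They store digestive enzymes, many of them as inactive precursors, in zymogen granules and release them into the ducts, and trypsin activates the other precursors in the gut. Endocrine cells of the islet are not a known source of these enzymes, and RNA from broken cells floats free in a cell suspension and enters every droplet, so enzyme RNA in an islet library can lie in barcodes of its own or as a thin layer over all barcodes.

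The WT library held 118523180 UMIs (unique molecular identifiers, each standing for 1 captured transcript) in 599690 barcodes. Cells were barcodes of at least 500 genes with at least 10% of the UMIs at the 99th percentile of the 3000 largest barcodes. There were 4547, the smallest with 5641 UMIs and the median with 21643. They were grouped by hormone share of their UMIs as beta (insulin genes Ins1 and Ins2 at least 30%, 3261 cells), alpha (glucagon, Gcg, at least 8%, 471 cells), delta (somatostatin, Sst, at least 3%, 149 cells), PP (pancreatic polypeptide, Ppy, at least 8%, 117 cells) or none of these (549 cells), and 63 cells that met several limits were put in the first that applied. Barcodes of 1 to 200 UMIs, 589592 in all with a median of 3 UMIs, are called droplets and show the free RNA. A barcode was called a carrier if it had at least 20 UMIs of the 10 genes and at least 5 times their share in droplets, which set the limit at 0.376% of its UMIs. Levels are UMIs of a gene per 1000000 UMIs (CPM) with 95% exact intervals. The intervals cover counting error only, since cells of 1 library are not replicates.

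The 10 genes had 21860 UMIs in the library (184 CPM), spread over 7260 barcodes. The chymotrypsinogen gene Ctrb1 (ENSMUSG00000031957, GRCm38 chr8:111686519-111691010, minus strand) had 5024 UMIs. The pancreatic elastase genes Cela2a (ENSMUSG00000058579, chr4:141814962-141826160, minus) and Cela3b (ENSMUSG00000023433, chr4:137420999-137430540, minus) had 2302 and 1507 UMIs. The trypsinogen genes lie in a cluster on chromosome 6, where Try4 (ENSMUSG00000054106, chr6:41302269-41305532, plus) had 3433 UMIs, Try5 (ENSMUSG00000036938, chr6:41311233-41316841, minus) had 3432 and Prss2 (ENSMUSG00000057163, chr6:41521787-41525079, plus) had 1346. The carboxypeptidase genes Cpa1 (ENSMUSG00000054446, chr6:30639218-30645363, plus) and Cpb1 (ENSMUSG00000011463, chr3:20248264-20275733, minus) had 1030 and 932 UMIs. For fat digestion, the lipase gene Pnlip (ENSMUSG00000046008, chr19:58652498-58681788, plus) had 841 UMIs, and the gene of its cofactor colipase, Clps (ENSMUSG00000024225, chr17:28558149-28560766, minus), had 2013. The kit tags the 3′ end of a transcript, so a UMI count does not grow with transcript length. Ctrb1, Cela2a and Clps each overlap another gene on the same strand, and reads in the overlap could have been counted for either.

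The trypsinogen genes are close copies, which bears on how well their counts can be told apart. Over the 741 coding bases, Try4 and Try5 differed at 19 (97.4% identity), and Try4 and Prss2 at 62 (91.6% identity). In the last 300 bases of the transcript, where the kit reads, Try4 and Try5 differed at 11. The last 60 coding bases, up to and including the stop codon, are shown 5′ to 3′ on the coding strand (GRCm38), with capitals where a base differs from Try4 (chr6:41305429-41305488 for Try4, chr6:41311277-41311336 for Try5, chr6:41524963-41525022 for Prss2).
Try4: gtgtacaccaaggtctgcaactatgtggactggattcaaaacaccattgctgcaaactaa
Try5: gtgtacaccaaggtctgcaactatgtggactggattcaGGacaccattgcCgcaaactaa
Prss2: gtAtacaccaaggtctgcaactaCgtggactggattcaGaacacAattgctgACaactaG
Try5 differed from Try4 at 3 of these bases and Prss2 at 7. How reads that match several copies were counted is not given in the sources used here, so the split between Try4, Try5 and Prss2 is uncertain.

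Most of the enzyme RNA lay in very few barcodes. The 59 carriers held 54.7% of the UMIs of the 10 genes and 0.117% of all UMIs of the library. The 10 barcodes richest in enzyme RNA held 31.4% and the richest barcode held 6.37%. Of the 59 carriers, 54 lay below the cell limit on UMIs and held 45.7% of the enzyme UMIs, and 5 were cells and held 8.97%. Cells other than carriers held 10.1% of the enzyme UMIs and 88.3% of all UMIs. Droplets other than carriers held 31.1% of the enzyme UMIs and 8.30% of all UMIs. Clps was the exception among the genes: 28.8% of its UMIs lay in carriers, against 48.1% (Prss2) to 60.8% (Try5) for the other 9.

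**Figure D1:**
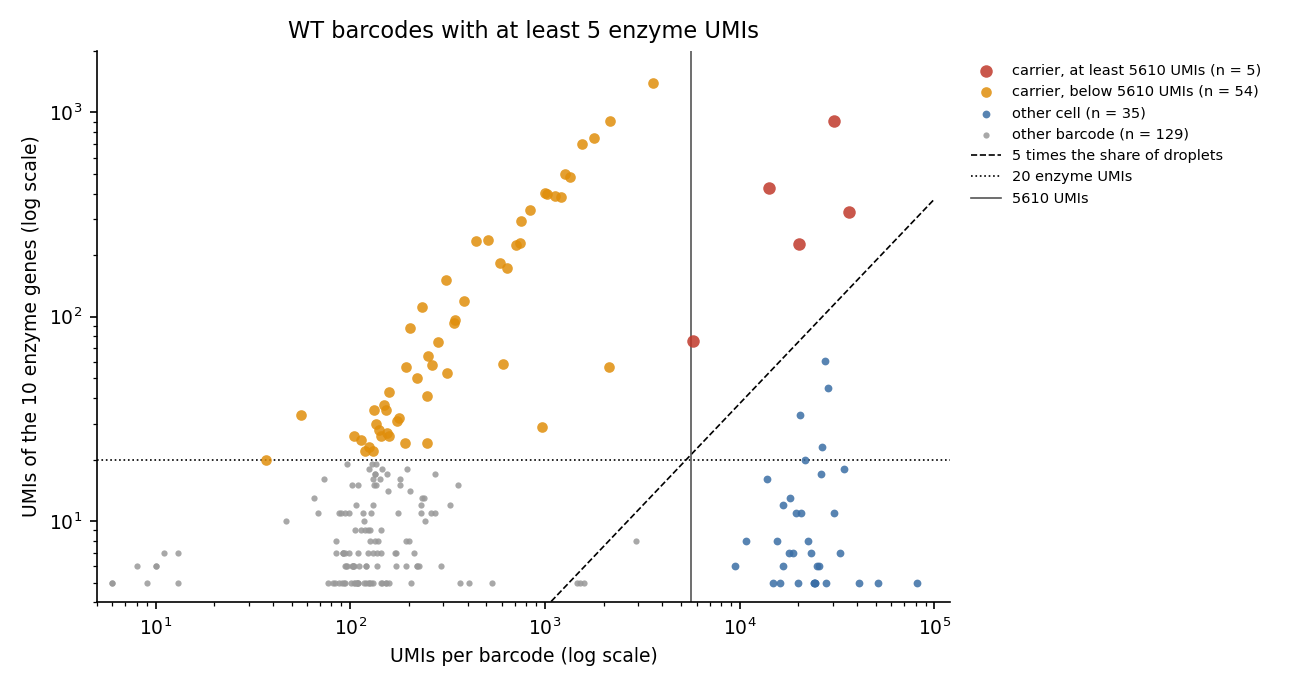
UMIs of the 10 enzyme genes (y axis, log scale) against all UMIs of a barcode (x axis, log scale) for WT barcodes with at least 5 enzyme UMIs, with lines for the 3 limits. The 54 carriers below the cell limit form a band that climbs to 1393 enzyme UMIs, and 5 carriers lie to the right of the cell limit.

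The carriers below the cell limit were small barcodes in which enzyme RNA was a main component. They had 37 to 3578 UMIs (median 273), of which 2.67% to 58.9% (median 27.2%) came from the 10 genes. The richest had 1393 enzyme UMIs among 3578, with 308 of Ctrb1, 291 of Try4, 284 of Try5 and 128 of Cela2a, and the next had 910 among 2162, 745 among 1778 and 700 among 1543. In these 4 barcodes the enzymes made up 38.9%, 42.1%, 41.9% and 45.4% of UMIs, and insulin RNA 1.76%, 3.93%, 2.19% and 3.31%. Summed over the 54 barcodes, the 10 genes stood at 318556 CPM, against 691 CPM in droplets without carriers. All 10 genes were at least 2-fold higher than in droplets, a direction that the choice of carriers fixes, where 29% of the 107 genes of at least 1000 CPM were.

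The larger carriers below the cell limit held few genes for their size, and the smaller did not. Between 1000 and 2000 UMIs, 7 carriers had a median of 190 genes (144 to 215), against 368 genes in 549 other barcodes of that size. From 2000 UMIs to the cell limit, 3 carriers had 264, 289 and 524 genes, against a median of 934 in 481 other barcodes. Between 500 and 1000 UMIs the medians were 143 genes in 10 carriers and 173 in 596 others. Between 200 and 500 UMIs the medians were close, at 109 genes in 14 carriers and 105 genes in 3888 other barcodes, and between 100 and 200 UMIs they were 76.5 in 18 carriers and 64 in 32993 others. Pooled, insulin RNA took 7.11% of UMIs in these 54 carriers, which is 20.9% of its share in droplets without carriers. Ribosomal protein genes took 3.95% of UMIs and the nuclear RNA Malat1 took 0.271%, and Malat1 too lay below droplets, at 23.1% of the share there. Mitochondrial RNA took 8.31% when pooled, but its median over the 54 barcodes was 2.50%, with a range of 0% to 78.2%. Whether these barcodes held whole cells was not tested.

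**Figure D2:**
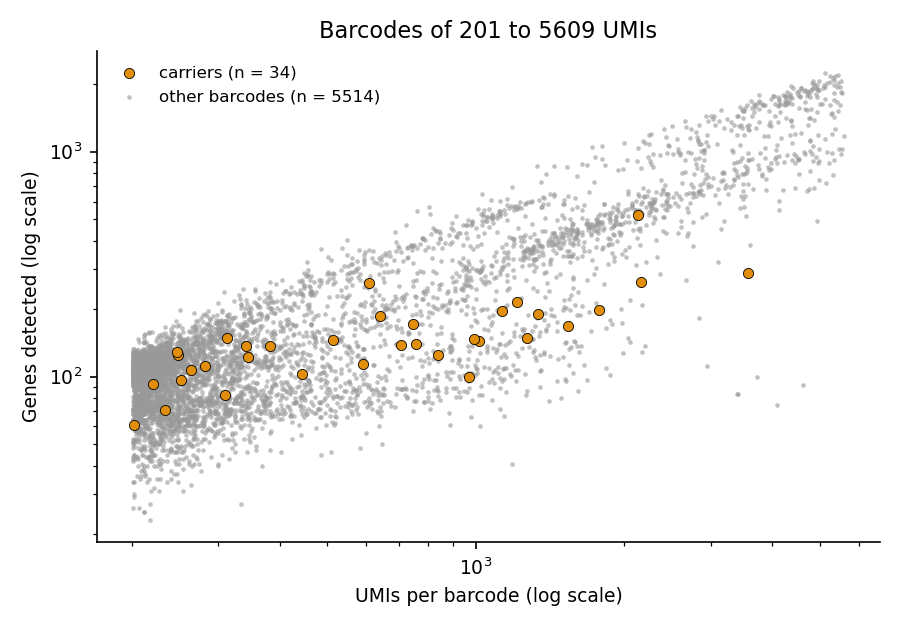
Genes detected (y axis, log scale) against UMIs (x axis, log scale) in WT barcodes of over 200 UMIs that lay below the cell limit, with 34 carriers over 5514 other barcodes. Above about 1000 UMIs nearly all carriers lie low in the cloud, with 3 carriers of over 2000 UMIs at 264 to 524 genes against a median of 934 in others of that size.

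Of the 5 carriers among the cells, 4 met the hormone limit of a beta or an alpha cell and 1 met none. They had 906, 427, 326, 226 and 76 enzyme UMIs. The richest was a beta cell by its RNA, with 906 enzyme UMIs of 30395 (2.98%) and 38.0% insulin RNA. Next came an alpha cell with 427 of 14113 (3.03%), 23.9% Gcg RNA and 2.95% insulin RNA. Beta cells with 326 of 36357 (0.897%) and 226 of 20204 (1.12%) had 61.8% and 46.6% insulin RNA, and a cell of the class none had 76 of 5722 (1.33%), with 2.38% insulin RNA and 0.280% Gcg RNA. The beta cells of 30395 and 36357 UMIs lay above the median beta cell, of 23415 UMIs, and that of 20204 lay below it. The alpha cell, of 14113 UMIs, lay below the median alpha cell, of 15455. Ctrb1 had 206, 106, 74, 42 and 12 UMIs in the 5 cells, and Cela2a had 179, 61, 62, 23 and 19. Try5, in contrast, had 74, 82, 16, 52 and 0, and Clps had 63, 34, 17, 8 and 7. Whether these barcodes held 1 cell or several was not tested.

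Set against the 4542 other cells, all 10 genes were higher in the 5 carrier cells, as the choice of carriers requires. The background was 12.9% of 4532 genes at least 2-fold higher and 17.3% at least 2-fold lower, and nothing is read from the count. The level of Ctrb1 was 4120 CPM (3744 to 4524) in carrier cells and 4.47 CPM in other cells, and that of Cela2a was 3221 CPM (2890 to 3580) and 1.27 CPM. At this depth a level of 20 CPM in carrier cells is about 2 UMIs, so that background holds genes of very few counts. The choice of carriers was clear at its edge: by share the nearest barcodes inside were at 0.897%, 1.12% and 1.33%, and the nearest outside with at least 20 enzyme UMIs were at 0.223%, 0.162% and 0.158%. By count the edge was less clear, with 6 carriers of 20 to 24 enzyme UMIs and 20 barcodes of 15 to 19 that passed on share alone.

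Other acinar genes moved with the 10 enzymes, although they were not used to choose carriers. Of 28 further acinar genes on a list, 26 were in the gene list, and every carrier had at least 1 UMI of them: 31 to 350 UMIs per carrier cell and 3 to 1205 in carriers below the cell limit. Together they were at 8624 CPM in carrier cells, against 20.02 CPM in other cells, and at 224947 CPM in carriers below the cell limit, against 399 CPM in droplets without carriers. All 13 genes with at least 20 UMIs in carrier cells were 205 to 1187 times higher there than in other cells. The lipase genes Cel and Pnliprp1 had 40 and 35 UMIs in carrier cells (375 and 328 CPM), against 0.315 and 0.335 CPM in other cells. Chymotrypsin-like Ctrl had 73 UMIs (684 CPM, against 0.793 CPM), elastase Cela1 100 (936 CPM, against 4.38 CPM), the trypsin inhibitor Spink1 33 (309 CPM, against 0.545 CPM) and Sycn and Zg16, which encode zymogen granule proteins, 64 and 48 (599 and 449 CPM, against 1.25 and 0.430 CPM). Reg1, made by acinar cells and raised in injured pancreas, had 27 UMIs in carrier cells (253 CPM), against 0.344 CPM in other cells.

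Some known acinar genes were scarce even in carriers. The amylase gene Amy2a5 had 0 UMIs in carrier cells and 1 in carriers below the cell limit, although amylase is known as a major acinar product. Amylase genes exist as near-identical copies, and how reads that match several of them were counted is not given in the sources used here. Of the acinar regulators, Ptf1a had 0 UMIs and Rbpjl 1 among the 138145 UMIs of all carriers, a depth at which low genes need not be seen. Bhlha15 (Mist1) had 2 UMIs in carrier cells (18.7 CPM), against 10.2 CPM in other cells, a ratio of 1.84 (0.222 to 6.65). Markers of other cells had few UMIs in carriers, and their levels did not all go one way. In carrier cells, 10 ductal genes summed to 11 UMIs (103 CPM, 51.4 to 184, against 167 CPM in other cells), with 7 of the 10 at 0. Krt7 alone had 9 of these UMIs, and it stood at 126 CPM in other cells, so the sum is mostly that of 1 gene. In carriers below the cell limit they summed to 13 UMIs, or 415 CPM (221 to 709), against 218 CPM in droplets without carriers, again with 7 at 0, and 11 of the 13 UMIs were of Tff2, a trefoil peptide gene. In carrier cells and in carriers below the cell limit, in this order, 5 macrophage genes had 3 and 8 UMIs (28.1 and 255 CPM), against 124 CPM in other cells and 151 CPM in droplets. Endothelial genes had 1 and 2 UMIs, B cell genes 5 and 0, mesenchymal genes 0 and 1, erythroid genes 4 and 2, and T cell, proliferation and goblet cell genes 0 and 0. The B cell genes summed to 46.8 CPM in carrier cells (15.2 to 109), against 61.2 CPM in other cells. Cd79a, Cd79b and Ms4a1 had 2, 2 and 1 UMIs there. Relative to other cells these were 0.324 (0.0392 to 1.17), 9.51 (1.14 to 34.8) and 6.85 (0.172 to 38.8). Goblet cell genes stood at 1.16 CPM in other cells, so a count of 0 in carriers of this depth shows nothing of them. The part of these other cell types in the enzyme level was not tested.

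**Figure D3:**
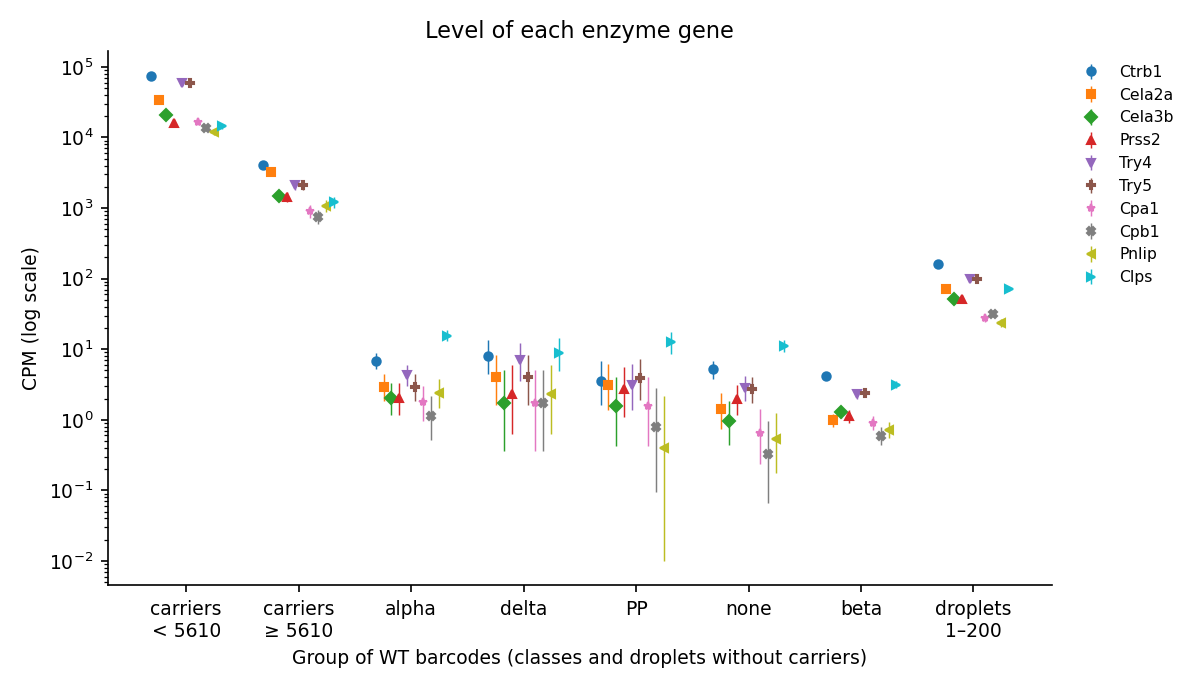
Level of each of the 10 enzyme genes in CPM (y axis, log scale) in carriers, cell classes without carriers and droplets without carriers (x axis), with 95% exact counting intervals. Carriers lie far above all other groups, the cell classes lie below the droplets for every gene, and Clps stands above the other genes in alpha, PP and none cells.

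The carriers did not all hold the same mix of enzymes. In 27 carriers Cela2a had more UMIs than Try4, in 31 it had fewer and in 1 it had as many. The split was made after the values were seen, so the values of Cela2a and Try4 define it. In the 24 Cela2a-rich carriers below the cell limit Cela2a made up 27.5 of 100 enzyme UMIs, and in the 29 Try4-rich ones 7.06. Try4 made up 7.28 in Cela2a-rich and 20.7 in Try4-rich carriers. Prss2, also a trypsinogen gene, did not follow Try4: it made up 10.1 of 100 enzyme UMIs in Cela2a-rich and 3.86 in Try4-rich carriers, a ratio of 2.61 (2.16 to 3.16). Pnlip was likewise higher in Cela2a-rich carriers, with 7.17 against 3.10 of 100 enzyme UMIs. Try5 and Ctrb1 went the way of Try4, with ratios of 0.536 (0.459 to 0.625) and 0.668 (0.588 to 0.758). Cela3b, Cpa1, Cpb1 and Clps had ratios of 0.858, 1.19, 0.867 and 1.17, each with an interval that includes 1.

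A set of 6 further trypsin genes was nearly absent from the Cela2a-rich carriers. Prss1, Prss3, Gm5771, Gm10334, 1810009J06Rik and Gm2663, picked after their values were seen, had 0, 0, 0, 0, 0 and 3 UMIs in the 24 Cela2a-rich carriers below the cell limit, which had 1716 enzyme UMIs. The 29 Try4-rich carriers had 878, 1290, 1068, 1824, 827 and 785 UMIs of these genes beside 8246 enzyme UMIs. These genes are close copies: in coding bases Prss3 and Gm10334 differed at 7, 1810009J06Rik and Gm2663 at 4, and Prss1 and Gm5771 at 18. In the last 300 bases of the transcript these pairs differed at 112, 11 and 56, gaps included. Prss1, Prss3, Gm5771 and Gm10334 also shared 92.4% to 93.4% of coding bases with Try4. How reads that match several copies were counted is not given, so the 6 counts need not be independent. Over all carriers the 6 genes together had 0.198 UMIs per 100 enzyme UMIs in the 27 Cela2a-rich carriers, where 24 had none, and 80.1 in the 31 Try4-rich carriers, where 2 had none. Among carriers with at least 100 enzyme UMIs the values were 0 to 0.307 in 7 Cela2a-rich and 50 to 105 in 18 Try4-rich carriers, and none lay between 10 and 40. Since the genes were picked after their values were seen, nothing is read from this gap. How many of all genes show such a gap was not counted. Carrier cells fell on both sides: the alpha cell had 76.1 and the beta cell of 226 enzyme UMIs had 57.5, while the beta cells of 906 and 326 had 0.221 and 0.307 and the cell of the class none had 0. Droplets without carriers lay between, at 38.7 (37.2 to 40.2).

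Other acinar genes also differed between these carriers. The trypsin inhibitor gene Spink1 had 5 UMIs in the Cela2a-rich and 491 in the Try4-rich carriers below the cell limit, 0.291 and 5.95 per 100 enzyme UMIs. The elastase gene Cela1 ran the other way, with 8.39 per 100 enzyme UMIs in Cela2a-rich and 0.885 in Try4-rich carriers, a ratio of 9.48 (7.10 to 12.7). Cel (4.81), Pnliprp1 (3.71), Zg16 (3.33), Ctrl (2.78) and Reg1 (2.25) were also higher per enzyme UMI in Cela2a-rich carriers, by these ratios. The gene 2210010C04Rik, from the same family and also on chromosome 6, did not follow the other trypsin genes, at a ratio of 0.888 (0.719 to 1.09). Over all carriers, cells included, the 27 Cela2a-rich ones were smaller, with a median of 202 UMIs against 746 in the 31 Try4-rich ones. They also had more insulin RNA, with a median of 18.5% against 6.66%.

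**Figure D4:**
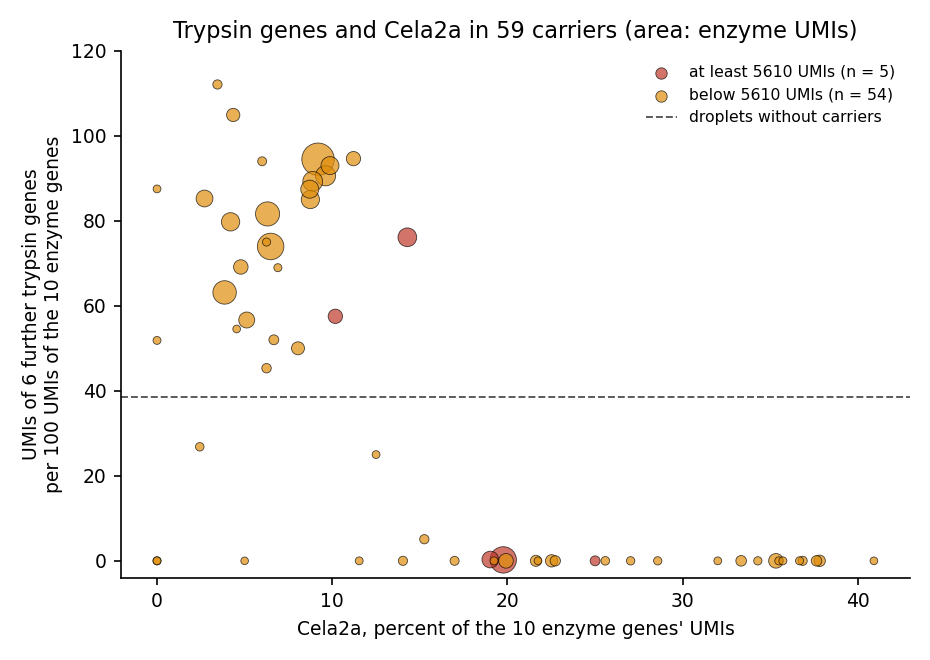
UMIs of 6 further trypsin genes per 100 UMIs of the 10 enzyme genes (y axis) against the share of Cela2a in the 10 genes' UMIs (x axis) in 59 WT carriers, with area by enzyme UMIs and a dashed line for droplets without carriers. Of the carriers, 27 lie at 40 or more per 100, 30 lie under 10 and 2 lie between.

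The start regions of Cela2a and Try4, the genes that part the carriers, are shown for their motifs. Acinar genes are known to be driven by PTF1, a complex that binds an E-box and a TC-box. Both sequences run 5′ to 3′ from 250 bases before to 50 bases after the annotated start, from RefSeq on GRCm38.p6 (chr4:141825956-141826255, minus strand, for Cela2a and chr6:41302022-41302321, plus strand, for Try4). Capitals mark CACCTG and TTTCCC on either strand, so that CAGGTG and GGGAAA are their reverse forms.
Cela2a: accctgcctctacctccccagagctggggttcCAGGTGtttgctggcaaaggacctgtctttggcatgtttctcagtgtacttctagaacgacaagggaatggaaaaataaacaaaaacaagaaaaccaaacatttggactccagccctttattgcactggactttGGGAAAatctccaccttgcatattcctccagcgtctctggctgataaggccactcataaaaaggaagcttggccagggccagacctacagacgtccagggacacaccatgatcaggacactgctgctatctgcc
Try4: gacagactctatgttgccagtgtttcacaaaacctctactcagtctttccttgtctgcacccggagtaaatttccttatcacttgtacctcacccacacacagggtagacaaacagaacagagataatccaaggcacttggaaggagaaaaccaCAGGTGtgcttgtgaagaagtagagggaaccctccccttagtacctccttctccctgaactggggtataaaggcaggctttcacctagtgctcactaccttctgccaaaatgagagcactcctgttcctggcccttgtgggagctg
Cela2a held both motifs and Try4 only CACCTG. Of the 8 genes with an entry in the table (Try5 and Clps have none), 5 held CACCTG, as did 20.2% of 32851 mouse start regions, and 4 held TTTCCC, as did 25.2% of them. Cela2a and Prss2 held both, which 4.86% of all start regions did. A match of letters is no shown binding site.

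In islet cells outside the carriers, enzyme RNA was below its level in free RNA. Summed, the 10 genes stood at 42.0 CPM in alpha cells (37.6 to 46.8), 41.8 in delta cells (32.7 to 52.6), 33.5 in PP cells (26.7 to 41.4), 27.6 in cells of the class none (24.4 to 31.2) and 17.6 in beta cells (16.7 to 18.5), against 691 CPM in droplets without carriers (675 to 708). Relative to droplets this was 0.0607 in alpha, 0.0605 in delta, 0.0484 in PP, 0.0400 in none and 0.0254 in beta cells. The intervals of alpha, delta and PP cells overlap, and that of beta cells lies below those of the other classes. This last order turned with the total: with hormone and mitochondrial UMIs left out, beta cells stood at 43.9 CPM (41.6 to 46.2), above none at 37.6 CPM (33.1 to 42.5), and alpha, delta and PP cells at 61.9, 56.4 and 62.7 CPM. All 10 genes were at least 2-fold lower in each class than in droplets. The background for that was 6.8% of genes in alpha, 3.61% in delta, 6.68% in PP, 0.644% in none and 3.66% in beta cells. The background holds genes of at least 20 CPM in either group, but all 10 genes reached 20 CPM only in droplets. Their highest level in a class was 15.5 CPM (Clps in alpha cells), and cells rich in them were left out as carriers. Their direction was thus set by how they entered, and nothing is read from the count. The median log2 ratio of the 10 genes was -4.12, -3.75, -4.17, -4.67 and -4.57 in these classes in the same order, beside 0.09, 0.54, -0.05, 0.49 and -0.31 for all genes tested.

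With carriers kept, the order of the classes was set by a few cells. Alpha cells then stood at 96.2 CPM (89.4 to 103), none at 35.8 (32.1 to 39.9) and beta cells at 35.1 (33.8 to 36.4), while delta and PP cells, with 72 and 85 enzyme UMIs, had no carrier. The single alpha carrier held 427 of the 757 enzyme UMIs of its class (56.4%, 52.8 to 59.97), the single carrier in none held 22.9% (18.5 to 27.8), and 3 beta carriers held 49.9% (48.1 to 51.7). Most cells had no enzyme UMI at all, and the median was 0 in every class. At least 1 enzyme UMI was found in 39.4% of alpha, 32.2% of delta, 43.6% of PP, 30.1% of none and 28.9% of beta cells without carriers, against 0.884% of droplets, at median depths of 15464.5, 9179, 21063, 16637.5, 23415 and 3 UMIs.

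The protease genes were low in every cell class. In alpha, delta, PP, none and beta cells without carriers, Ctrb1 had 6.87, 8.13, 3.54, 5.18 and 4.12 CPM, against 164 CPM in droplets. For Cela2a these levels were 2.93, 4.06, 3.15, 1.40 and 0.985 CPM, against 71.4 CPM in droplets. Try4 had 4.33, 6.97, 3.15, 2.81 and 2.31 CPM, against 99.2 CPM. Relative to droplets, the 9 genes other than Clps lay between 0.0138 (Cela2a) and 0.0331 (Cpa1) in beta cells and between 0.0294 (Try5) and 0.102 (Pnlip) in alpha cells. The counts behind the delta and PP values are small, with at most 14 UMIs per gene for these 9.

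Clps, the colipase gene, stood apart. It had 15.5 CPM in alpha cells (12.9 to 18.5), 8.71 in delta cells (4.87 to 14.4), 12.6 in PP cells (8.61 to 17.8), 11.1 in none (9.08 to 13.5) and 3.15 in beta cells (2.78 to 3.55), against 71.4 CPM in droplets (66.3 to 76.9). Its ratio to droplets was the highest of the 10 genes in each class: 0.217 in alpha, 0.122 in delta, 0.176 in PP, 0.156 in none and 0.0441 in beta cells, where the median of the other 9 genes was 0.0410, 0.0549, 0.0317, 0.0238 and 0.0240. Per UMI of the other 9 genes, Clps had 0.587 UMIs in alpha (0.465 to 0.737), 0.263 in delta (0.138 to 0.471), 0.604 in PP (0.377 to 0.954), 0.673 in none (0.519 to 0.870) and 0.218 in beta cells (0.190 to 0.249), against 0.115 in droplets without carriers (0.107 to 0.125). In carriers this value was lowest, at 0.0704 in carrier cells and 0.0472 in carriers below the cell limit. Barcodes between the droplets and the cell limit, without carriers, had 0.279 (0.237 to 0.328), above the droplets and also above beta cells.

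**Figure D5:**
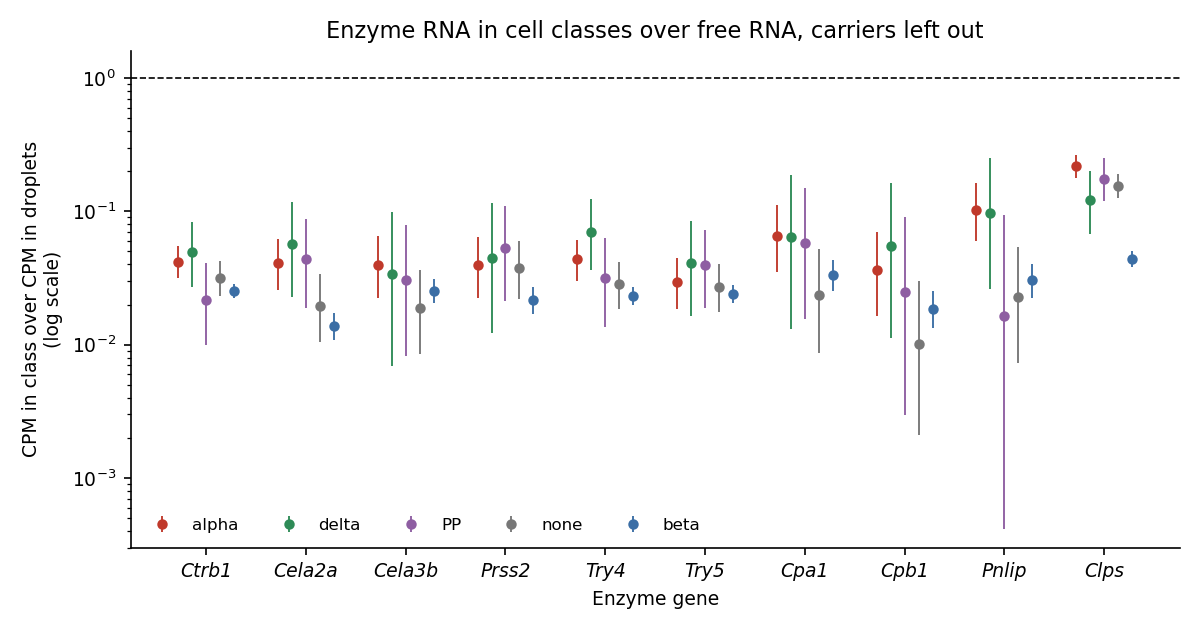
Level in each cell class over the level in droplets, carriers left out of both (y axis, log scale, dashed line at 1), for each of the 10 enzyme genes (x axis), with 95% exact counting intervals. All values lie below 1, and Clps is highest in every class, at 0.217 in alpha and 0.0441 in beta cells.

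Clps UMIs were spread over many cells. A Clps UMI was found in 84 of the 470 alpha cells without carriers, in which 386 had 0, 60 had 1, 17 had 2, 2 had 3 and 5 had 4 or more, with at most 6. Without the alpha cell richest in Clps the level was 14.8 CPM. The share of cells with a Clps UMI was 17.9% in alpha, 9.40% in delta, 17.9% in PP and 11.9% in none, against 6.38% in beta cells, although beta cells were the deepest. After each cell was thinned to the cell limit, a depth every cell reached, these shares were 7.61%, 4.93%, 6.41% and 4.82%, against 1.62% in beta cells. In the class none 4 cells had 4 or more Clps UMIs, with up to 11, and 3 of these had no UMI of the other 9 genes.

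Against beta cells, Clps was 4.93 times higher in alpha (3.94 to 6.14), 2.77 times in delta (1.53 to 4.65), 4.0 times in PP (2.68 to 5.79) and 3.53 times in none (2.78 to 4.45). The other 9 genes summed were 1.83 times higher in alpha (1.57 to 2.12), 2.29 times in delta (1.72 to 2.99), 1.44 times in PP (1.08 to 1.90) and 1.14 times in none (0.960 to 1.35). These ratios depend on the total, of which hormone RNA is a large part in beta cells. With hormone and mitochondrial UMIs left out of it, Clps was 2.91 times higher in alpha (2.33 to 3.62), 1.496 times in delta (0.825 to 2.51), 3.01 times in PP (2.02 to 4.35) and 1.93 times in none (1.52 to 2.43) than in beta cells. The other 9 genes were then at 1.08 times the beta level in alpha (0.930 to 1.26), 1.24 in delta (0.933 to 1.62), 1.09 in PP (0.809 to 1.43) and 0.624 in none (0.524 to 0.739). At least 2-fold higher than in beta cells were 3 of the 8 genes that reached 2 CPM for alpha, 5 of 7 for delta, 3 of 6 for PP and 1 of 4 for none, with Clps among them each time. The background was 16.1%, 39.4%, 13% and 36% of all genes tested in these classes. Genes reach 2 CPM more easily where they are high, so these counts describe only the genes named.

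The hormone of another class gives a scale for free RNA, on the assumption that all of it is free and that free RNA has the droplets' mix. On the Ins2 level of alpha cells, Clps would stand at 6.78 CPM there, where 15.5 CPM (12.9 to 18.5) were measured, and the other 9 genes at 58.9 CPM, where 26.5 CPM were measured. For delta and PP cells the Ins2 level gives 10.8 and 10.6 CPM for Clps, where 8.71 and 12.6 CPM were measured. In the class none it gives 31.4 CPM, where 11.1 CPM were measured, and in beta cells the Gcg level gives 7.09 CPM, where 3.15 CPM were measured. On Ppy and Sst, alpha cells would have 116 and 87.4 CPM of Clps. On Gcg, delta and PP cells would have 32.4 and 45.0 CPM. Delta cells would have 184 CPM on Ppy, and PP cells 87.3 CPM on Sst. All of these lie above the measured levels, and Ins2 gave the lowest scale in alpha, delta and PP cells. Outside carriers, the mix of enzyme RNA was not the same at every barcode size, and the source of Clps in any class was not tested.

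Enzyme RNA outside carriers was uneven over barcode sizes. Without carriers, the 10 genes stood at 558 CPM in barcodes of up to 10 UMIs, 305 in those of up to 50, 726 up to 100, 776 up to 200, 611 up to 500, 167 up to 1000, 143 up to 2000 and 51.7 from there to the cell limit, each size class starting above the one before. The level was thus highest between 50 and 200 UMIs and fell in larger barcodes. Of all droplets 99.1% had 0 enzyme UMIs, and the 4519 with exactly 1 held 61.0% of the droplets' enzyme UMIs. The 52 droplets with at least 10 held 14.3%, and 43 barcodes of 10 to 19 enzyme UMIs passed the carrier limit on share alone. In beta cells without carriers, the mean was 0.141 enzyme UMIs per cell below 10000 UMIs, 0.330 from 10000, 0.498 from 20000 and 0.516 from 30000 UMIs. In CPM these were 18.6, 19.4, 20.6 and 13.0 (11.8 to 14.4). Cells just inside the limits were close to those outside, with 44.0 CPM (23.4 to 75.3) in cells of up to 6500 UMIs and 46.3 CPM (28.3 to 71.5) in barcodes from 4700 UMIs to the cell limit, and 32.9 CPM (24.8 to 42.8) at 30 to 32% insulin and 21.3 CPM (13.9 to 31.2) at 28 to 30%.

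Likeness to the 10 enzymes was measured over carriers and over cells. By ratio of carrier cells over other cells, among genes with at least 50 UMIs in the 59 carriers, the leading genes were Cel (1187 times), Zg16 (1045), 2210010C04Rik (987), Pnliprp1 (979.5), Ctrl (861), Gm5771 (762), Reg1 (735), 1810009J06Rik (697), Prss3 (653) and Prss1 (611). Cel, Zg16, 2210010C04Rik, Pnliprp1, Ctrl and Reg1 had UMIs in all 5 carrier cells, Prss3 in 3, and Gm5771, 1810009J06Rik and Prss1 in 2. By correlation of log2(CPM + 1) with the summed enzymes over 4547 cells, Pyy led with r = 0.139, followed by 2210010C04Rik and Gcg, and values this weak in sparse counts are no finding.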

How the data were processed

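Islet RNA of 1 WT and 1 TG library was measured. The deposited values are raw UMI counts per gene and barcode, unfiltered, per the file headers. FastQC, Trimmomatic and build mm10 are named in the submitters' processing notes, without versions. Aligner, counter and annotation were not stated in the sources used here. No row lacked a gene name. The copy of the TG matrix at hand held 547 entries.

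Classes, droplets and carriers were set as given above. Raw counts were summed per group and scaled to CPM. Intervals are exact Poisson (levels), exact binomial (shares) or exact conditional binomial (ratios), at 95%, for counting error only. There was no test, since each genotype had 1 library. No doublet caller was run and doublets were not removed. Shares of cells were also computed after thinning to the cell limit. A gene counted as changed at 2-fold, among genes of at least 20 CPM in either group unless stated; list medians use CPM plus 1. The scripts were tested on simulated data.

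Named were the 10 genes, acinar list genes with at least 50 UMIs in carriers, and the 10 genes most like the enzymes by correlation (at least 100 UMIs in cells) and by ratio (at least 50 UMIs in carriers); list genes below that limit and the other trypsin genes were named after their values were seen. The 10 genes and the lists were chosen with earlier results of these data known. Gene positions and coding sequences are from GENCODE on GRCm38, start regions from RefSeq. Alternatives changed the cell and droplet limits, the carrier limits, the total and the trypsin split. Python 3.11.15, numpy 2.4.6, scipy 1.17.1, pandas 2.3.3, matplotlib 3.10.9 and Biopython 1.88 were used.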

Additional observations from a re-analysis of the deposited data

Results flagged for a closer look

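The TG droplets at hand, which enter no comparison, held enzyme RNA above the level of the WT droplets. Of their 782 UMIs, 8 (1.02%, exact 95% interval 0.443 to 2.01%) came from the 10 genes, against 0.0752% in WT droplets, a ratio of 13.6. The 8 UMIs lay in 3 of 59 barcodes with a UMI: 5 were in a barcode of 59 UMIs (Ctrb1 4, Prss2 1), 2 in a barcode of 63 (Cela3b and Clps) and 1 in a barcode of 15 (Cela2a). The WT barcodes at the same first 81 places held 0 of 451 UMIs. These are the first 81 barcodes of the list and not a sample of the library, and with 1 library per genotype and no TG cell at hand the value says nothing of the transgene.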

How the results depend on the processing

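With carriers left out, the enzyme sum was 42.0 CPM in alpha, 27.6 in none and 17.6 in beta cells, against 691 in droplets, and the ratios to droplets were 0.0607, 0.0400 and 0.0254, or 0.0558, 0.0367 and 0.0234 against droplets with their carriers kept. Likewise the share of Clps among the 10 genes was 37.0%, 40.2% and 17.9% in these classes. With hormone and mitochondrial UMIs left out of the total, the sums were 142 CPM in alpha, 56.4 in delta, 62.7 in PP, 48.7 in none and 87.5 in beta cells, against 1557 in droplets, with ratios of 0.0909 in alpha, 0.0362 in delta, 0.0313 in none and 0.0562 in beta cells. These sums keep the carriers. With carriers left out too, they were 61.9 CPM in alpha, 56.4 in delta, 62.7 in PP, 37.6 in none and 43.9 in beta cells. Alpha cells stood at 106 CPM without barcodes that met several limits, and none at 27.7 CPM from 10000 UMIs. Droplets stood at 639.7 CPM at 1 to 100 UMIs and at 645 without those of 10 or more enzyme UMIs. A limit of 100 enzyme UMIs left 25 carriers. At 2 times the droplet share, carriers held 54.7% of the enzyme UMIs of beta cells. Of 1882 genes of at least 50 CPM, 352 were at least 2-fold apart between carrier and other cells, against 1367 of 4532 genes of at least 20 CPM. The comparisons of carriers below the cell limit and of the mix of carriers, the removal of carriers from droplets, and the class sums and ratios to beta cells with both carriers and hormone UMIs left out, were chosen after seeing the data. No paired analysis was possible because each genotype had 1 library. The number of enzyme UMIs, at most 14 per gene other than Clps in delta and PP cells, limits what those classes can show.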
